A study of Mus musculus with 12 samples.

Results

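Metallothioneins are small cysteine-rich proteins that bind zinc and copper and buffer the free metal in a cell. Their genes are switched on by MTF1, a transcription factor that senses zinc and binds metal response elements in DNA. MTF1 also drives Slc30a1 (ZnT1), which exports zinc across the plasma membrane, whereas Slc39a14 (ZIP14) imports zinc, iron and manganese. Mt1 and Mt2 are made in most tissues and are classical targets of glucocorticoids, and Mt3 is best known from the brain.

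The genes described are the 6 rows of the deposited count table named Mt1, Mt2, Mt3, Mtf1, Slc30a1 and Slc39a14, out of 54532 gene rows, each measured in all 12 libraries. Ovaries at E15.5 came from mice carrying the Tg(Pou5f1-EGFP)2Mnn reporter, a transgene that labels germ cells green and that all 4 groups shared. Dams received 10 µg of dexamethasone (dex, an agonist of the glucocorticoid receptor) per g, or saline, every day between E12.5 and E15.5. GFP-positive germ cells (germ dex and germ saline) and GFP-negative somatic cells (soma dex and soma saline) were sorted by flow cytometry, with 3 libraries per group. Each library pooled ovaries from several litters, and the soma fraction is a mixture of every GFP-negative ovarian cell type. The comparisons asked what prenatal dex changed in either cell type, and how these cell types differ.

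The germ cell libraries held 14658503 to 17616664 counts and the soma libraries 15161804 to 18245507 counts. A level of 3 counts, the limit that a count of 0 allows, was 0.174 to 0.196 CPM (counts scaled to library depth and TMM factor) in germ cells and 0.169 to 0.194 CPM in soma, and covers counting error only. The markers followed the sort: 8 germ cell markers summed to 2779 to 3378 CPM in germ cells and to 3.70 to 22.1 CPM in soma, while 9 stromal markers summed to 121 to 259 CPM and to 19420 to 25640 CPM. In soma, 6 of 8 glucocorticoid receptor and target genes, kept as controls of the dosing, rose, Fkbp5 (a receptor co-chaperone) from 129 ± 13.0 to 313 ± 11.3 CPM (SD, n = 3 each). In germ cells 2 of these 8 rose, the clock gene Per1 from 14.47 ± 1.17 to 53.5 ± 11.4 CPM and the zinc finger gene Zbtb16 from 0.455 ± 0.257 to 3.59 ± 1.47 CPM. Zbtb16 stood at 1.896, 4.405 and 4.477 CPM in germ dex replicates 1 to 3, beside a soma dex mean of 69.5 CPM. In cultured fetal ovaries the study found PLZF, the protein of Zbtb16, raised by dex in soma and not in germ cells. The part of soma transcripts in the germ cell rise of Zbtb16 was not tested.

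Mt1 and Mt2 are close neighbours on chromosome 8, and the sequences before their starts are shown because both genes are textbook MTF1 targets while only Mt1 had high counts here. In GRCm38, Mt2 (ENSMUSG00000031762) spans positions 94172664 to 94173568 and Mt1 (ENSMUSG00000031765) spans 94179082 to 94180327, both on the + strand and 5513 bases apart. Mt3 (ENSMUSG00000031760) lies before them on the same strand, at 94152607 to 94154146. The lines give up to 250 bases before the RefSeq start (GRCm38.p6), cut where a GENCODE exon begins, with matches to the metal response core in capitals.
Mt2 promoter, chr8:94172368-94172617, + strand: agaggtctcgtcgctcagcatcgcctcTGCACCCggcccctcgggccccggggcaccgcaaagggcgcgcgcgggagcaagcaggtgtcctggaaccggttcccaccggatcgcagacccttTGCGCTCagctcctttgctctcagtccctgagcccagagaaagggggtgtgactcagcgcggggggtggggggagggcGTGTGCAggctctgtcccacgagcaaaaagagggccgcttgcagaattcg
Mt1 promoter, chr8:94178839-94179081, + strand: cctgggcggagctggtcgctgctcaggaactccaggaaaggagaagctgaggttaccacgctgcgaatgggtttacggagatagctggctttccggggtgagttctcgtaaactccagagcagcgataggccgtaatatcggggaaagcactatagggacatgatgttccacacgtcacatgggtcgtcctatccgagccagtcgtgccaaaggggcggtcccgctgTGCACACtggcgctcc
The core was searched as TGCACNC or TGCGCNC on both strands, in the window from 250 bases before to 50 after the RefSeq start. Mt2 held 4 matches, Mt1 held 3, Slc30a1 held 2, Mt3 held 1 and Mtf1 held 0. Of 32851 promoters of that length, 25.7% held at least 1 match, 7.11% at least 2, 1.97% at least 3 and 0.517% at least 4. A glucocorticoid half-site, searched as TGTTCT on both strands, matched in the Mtf1 window alone among these 5, against 19% of all promoters. The RefSeq starts are not the only annotated ones. GENCODE transcripts of Mt1 begin at 94179082, 94179211 and 94179241, and those of Mt2 at 94172664 and 94172860. Windows set from the last start of either gene would cover other bases, so the matches above hold for the RefSeq starts. Slc39a14 was not searched.

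The level of Mt1 set soma apart from germ cells. Mt1 was the most abundant of the 6 genes in soma per unit of length, at 29.4 ± 1.62 FPKM (fragments scaled to gene length and depth) after saline. Slc30a1 followed at 3.79 ± 0.522 FPKM, Mtf1 at 2.60 ± 0.250, Slc39a14 at 2.36 ± 0.240, Mt3 at 2.10 ± 0.576 and Mt2 at 0.480 ± 0.146 FPKM (SD, n = 3 each). The ranges of Mtf1, Slc39a14 and Mt3 overlapped, so their order is not set by these libraries. In germ cells after saline the order was another one, with Slc30a1 at 9.93 ± 1.65 FPKM, Mtf1 at 6.37 ± 0.223, Mt1 at 2.08 ± 0.603 and Slc39a14 at 1.71 ± 0.1103 FPKM, the last pair with overlapping ranges. Mt3 and Mt2 were at 0.0590 and 0.0330 FPKM, from 3 counts and 1 count in all.

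FPKM divides by length, and the length of Mt1 in the deposited tables, 1246 bases, is the whole span of the gene. A single-exon GENCODE transcript covers its introns, so intronic reads count for Mt1. With the 549 bases of its 3-exon transcript as the length, the soma saline mean would be 66.6 FPKM. Slc39a14 depends more on this choice: with the 2098 bases of its first transcript in place of 10550, it would be at 11.9 FPKM in soma saline, after Mt1 alone, and at 8.62 FPKM in germ saline, between Slc30a1 and Mtf1. The orders above thus hold for the deposited lengths. Mt2 has a length of 588 bases in the tables. The mean level of Mt1 in soma was 61.2 times that of Mt2 after saline on the deposited scale and 121 times with the lengths of the 3-exon transcripts. Both ratios take the Mt2 counts as deposited, although another gene, Gm45774, overlaps Mt2.

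**Figure D1:**
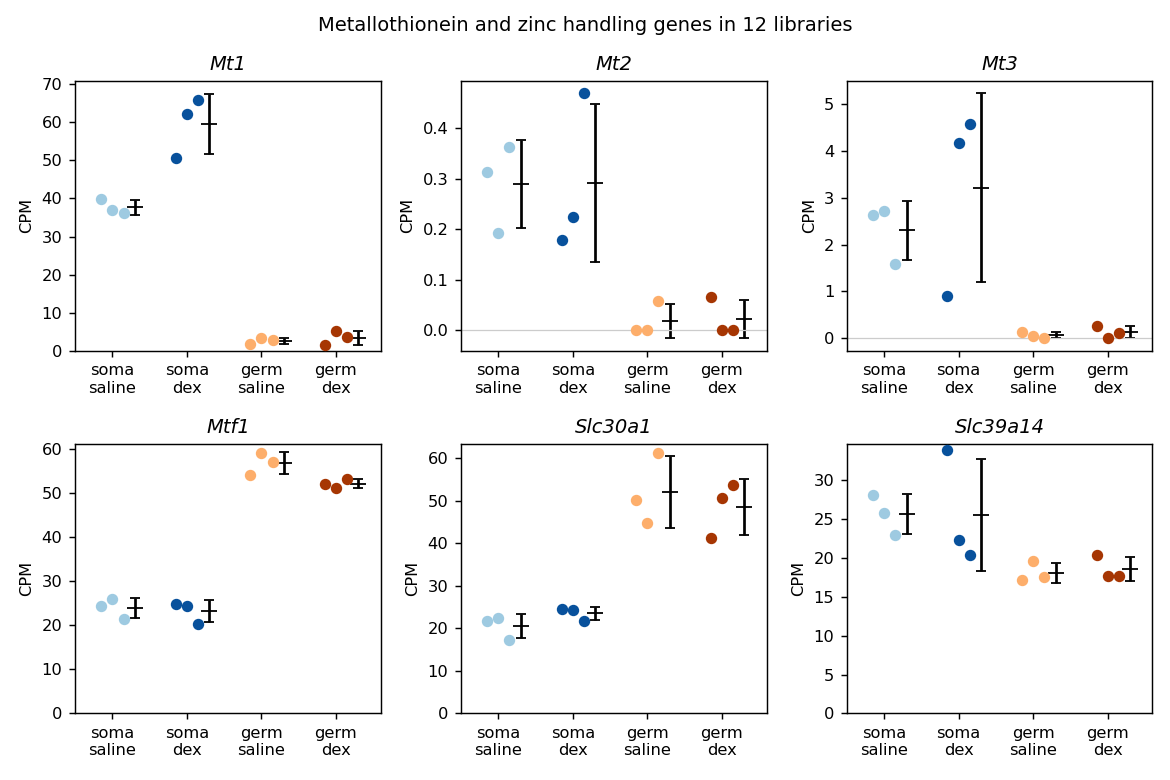
CPM of the 6 genes in the 12 libraries, on linear axes that differ between panels. Points are libraries in the order of their replicate numbers, and the black bar is the mean with the SD of 3. Mt1 and Mt3 sit high in soma, Mtf1 and Slc30a1 sit high in germ cells, and for Mt1 the 3 soma dex points lie above the 3 soma saline points. Mt2 is higher in soma too, but there at 3 to 8 counts per library, close to the limit of detection.

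Somatic cells after dex held more Mt1 transcript. Mt1 stood at 39.9, 36.8 and 36.2 CPM in the soma saline libraries and at 50.7, 62.1 and 66.0 CPM in the soma dex libraries. Every dex library was above every saline library. Mt1 rose by 0.67 on the log2 scale (SE 0.099, 95% interval 0.46 to 0.88), 1.59-fold, with an adjusted p of 0.000736 in edgeR's quasi-likelihood test. It was the only one of the 5 genes tested here to pass, 1 of 5, where 8.18% of all 16556 genes tested passed in either direction and 4.81% passed as higher. The call held without each library in turn. It was lost when all 12 libraries were fitted together (log2 fold change 0.67, adjusted p = 0.0690) and under limma on FPKM with no filter (0.64, adjusted p = 0.0520), with adjusted p from 6.19e-11 to 0.0690 over all alternatives.

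Mt2, the neighbour of Mt1 and usually induced along with it, was close to the limit of detection. It had 5, 3 and 6 counts in soma saline and 3, 4 and 8 counts in soma dex, 14 and 15 counts in all. The groups overlapped, and the ratio of dex to saline from these sums was 0.996 (95% interval 0.448 to 2.23, counting error only). Mt2 did not pass the filter on low counts and was not tested. That interval includes the 1.59-fold of Mt1, so these counts do not exclude a response of that size. The gene Gm45774 overlaps Mt2 on the opposite strand, and the strand setting of the counting is not given in the sources used here. The part of this overlap in the low Mt2 counts was not tested. Mt4, the remaining metallothionein gene, had 0 counts in every library.

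Mt3 varied more among the soma dex libraries, relative to its mean, than the other members did. It stood at 2.63, 2.71 and 1.58 CPM in soma saline and at 0.895, 4.16 and 4.58 CPM in soma dex, so that 1 dex library was below all saline libraries and the others were above them. The log2 fold change was 0.49 (SE 0.47, 95% interval −0.52 to 1.503, adjusted p = 0.621, edgeR). Without soma dex replicate 1 it was 0.93, with an adjusted p of 0.11.

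The same soma dex replicate 1 stood at one end for other genes as well. Mt1 was lower in it than in the other dex libraries, and Slc39a14 was higher, at 33.8 CPM against 22.3 and 20.4 CPM. Summed pregranulosa markers (9 genes) were at 744 CPM in it against 779 and 1068 CPM, summed macrophage markers (9 genes) at 59.7 against 150 and 141 CPM, and summed germ cell markers (8 genes) at 15.3 against 22.1 and 20.8 CPM. Its stromal (24900 CPM), endothelial (320 CPM) and erythroid (8090 CPM) sums lay between those of the other dex libraries, its surface epithelium and steroidogenic sums were below both and its perivascular sum was above both. The part of these differences in the levels of Mt1, Mt3 and Slc39a14 was not tested.

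The sensor and the transporters showed no change that passed the test in soma. Mtf1 stood at 24.4, 26.0 and 21.3 CPM after saline and at 24.9, 24.3 and 20.4 CPM after dex, with a log2 fold change of −0.04 (95% interval −0.29 to 0.22, adjusted p = 0.904, edgeR). Slc30a1 stood at 21.6, 22.5 and 17.2 CPM after saline and at 24.5, 24.4 and 21.8 CPM after dex. Its groups overlapped through 1 dex library, and the log2 fold change of 0.21 (SE 0.12, 95% interval −0.06 to 0.48) had an adjusted p of 0.374 in edgeR. Slc39a14 stood at 28.1, 25.8 and 23.0 CPM after saline against 33.8, 22.3 and 20.4 CPM after dex. Its log2 fold change was 0.00 (95% interval −0.35 to 0.35, adjusted p = 0.999, edgeR) and −0.25 without soma dex replicate 1 (adjusted p = 0.317). Reads from Mtf1 and 1110065P20Rik, and from Slc30a1 and 1700034H15Rik, cannot be told apart where these pairs overlap on opposite strands if counting ignored strand.

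Levels of several cell type markers in the soma fraction also differed between dex and saline. Summed macrophage markers ran from 210 to 282 CPM after saline and from 59.7 to 150 CPM after dex, with no overlap, and 5 of the 9 fell (Csf1r, Mrc1, Adgre1, Cx3cr1 and Cd68). Summed pregranulosa markers ran from 962 to 1042 CPM after saline and from 744 to 1068 CPM after dex, and Wnt4 fell. Summed stromal markers ran from 20830 to 23200 CPM and from 19420 to 25640 CPM, with Pdgfra higher. Summed perivascular markers (7 genes) ran from 857 to 881 CPM and from 833 to 1035 CPM, with Cspg4 and Kcnj8 higher. Endothelial markers (8 genes) ran from 340 to 400.1 CPM and from 304 to 348 CPM, with Emcn higher and Cdh5 and Tie1 lower. Summed germ cell markers ran from 3.70 to 6.91 CPM and from 15.3 to 22.1 CPM, a separation that lay in Dazl. Dazl rose from 1.19, 1.36 and 0.970 CPM to 12.7, 12.8 and 12.4 CPM, no other germ cell marker passed the test, and Pou5f1 and Dppa3 were at 0 in all 3 soma dex libraries. Erythroid markers (7 genes) ranged from 7387 to 12430 CPM and from 3276 to 16490 CPM. Surface epithelium and mesothelium markers (7 genes) ran from 465 to 554 CPM and from 374 to 579 CPM, and steroidogenic and adrenal markers (8 genes) from 98.7 to 106 CPM and from 84.1 to 123 CPM, with the ACTH receptor Mc2r higher. The part of these marker differences in the higher Mt1 level was not tested, and in bulk libraries fewer cells of a type and less RNA per cell cannot be told apart.

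**Figure D2:**
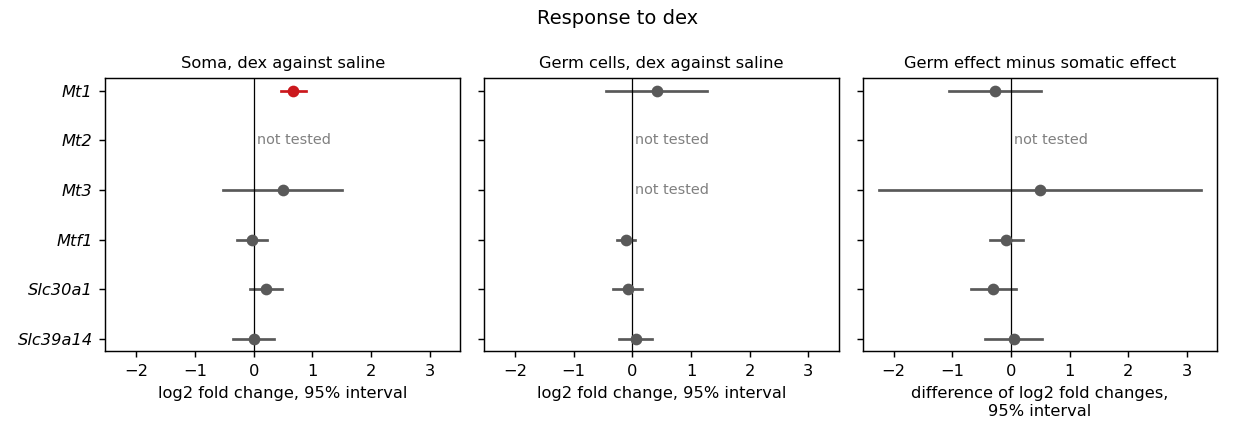
Log2 fold change (dex over saline) in soma and in germ cells, and the germ cell fold change minus the soma one, for each gene with its 95% interval from the edgeR fit. Red marks an adjusted p of at most 0.05. Mt1 in soma is the only red point, and the wide germ cell interval of Mt1 includes both 0 and the soma estimate.

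In germ cells none of these genes passed the test. Mt1 stood at 1.74, 3.25 and 2.79 CPM (27, 55 and 48 counts) after saline and at 1.44, 5.18 and 3.64 CPM (22, 80 and 61 counts) after dex. Of the 6 libraries, the dex libraries were the lowest and the 2 highest. Its log2 fold change of 0.41 (SE 0.39, 95% interval −0.45 to 1.27) had an adjusted p of 0.723 in edgeR. Without germ dex replicate 2 it was −0.02, and without germ dex replicate 1 it was 0.75.

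Mtf1 in germ cells stood at 54.1, 59.0 and 57.0 CPM after saline and at 52.0, 51.1 and 53.1 CPM after dex. The dex libraries were all below the saline libraries, but the log2 fold change of −0.10 (SE 0.071, 95% interval −0.26 to 0.05) did not pass (adjusted p = 0.616, edgeR). Slc30a1 stood at 50.1, 44.7 and 61.2 CPM after saline and at 41.2, 50.6 and 53.7 CPM after dex, with a log2 fold change of −0.08 (95% interval −0.34 to 0.17, adjusted p = 0.822, edgeR). Slc39a14 stood at 17.1, 19.6 and 17.5 CPM after saline and at 20.4, 17.7 and 17.7 CPM after dex, with a log2 fold change of 0.06 (95% interval −0.22 to 0.34, adjusted p = 0.889, edgeR). Both pairs of groups overlapped. Mt2 (1 count in each group) and Mt3 (3 counts after saline, 6 after dex) did not pass the filter. Thus 0 of 4 tested genes passed in edgeR and 0 had an unadjusted p under 0.05, where 0.208% of all 16857 genes tested passed in edgeR. In DESeq2 and limma 0 of these genes passed as well. Over all 16857 genes tested in edgeR, 1963 had an unadjusted p under 0.05.

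The test of the difference between the 2 cell types in the dex response found none among these genes. For Mt1 the germ cell log2 fold change minus the soma one was −0.27 (SE 0.37, 95% interval −1.06 to 0.52, adjusted p = 0.791, edgeR). For Slc30a1 it was −0.30 (SE 0.18, 95% interval −0.69 to 0.08, adjusted p = 0.455). For Mtf1, Slc39a14 and Mt3 it was −0.08, 0.05 and 0.50, the last with a 95% interval from −2.25 to 3.25. Of the 5 genes tested in edgeR, 0 passed and 0 had an unadjusted p under 0.05, where 1.62% of all 19390 genes passed in edgeR. In DESeq2 and limma 0 of the 6 passed. Over all 19390 genes tested in edgeR, 2991 had an unadjusted p under 0.05. The Mt1 interval does not exclude a germ cell response as large as that in soma.

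Between germ cells and soma, all 5 tested genes differed after saline, Mtf1 and Slc30a1 higher in germ cells and Mt1, Mt3 and Slc39a14 lower. Most genes differ between these cell types, so this count says little about these genes: 43.1% of 17941 genes were higher and 42.9% lower in germ cells. After dex 42% of 18171 genes were higher and 42.2% lower, and the same 2 and 3 genes were called. The sizes follow.

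Mt1 was lower in germ cells by a wide margin. Its log2 difference, germ cells minus soma, was −3.85 (SE 0.17, adjusted p = 1.89e-11) after saline and −4.15 (SE 0.29, adjusted p = 1.27e-07) after dex in edgeR, and no germ cell library came near a soma library. Mt3 had 3 counts over the germ saline libraries against 110 over the soma saline libraries, a ratio of 38.0 in favour of soma (95% interval 12.7 to 187). After dex it had 6 against 167 counts, a ratio of 25.6 (95% interval 11.5 to 70.8). For Mt2 the 1 germ cell count against 14 after saline gave a ratio of 14.51 (95% interval 2.21 to 613), and 1 against 15 after dex gave 13.8 (2.12 to 582). These intervals, for Mt3 and Mt2, cover counting error only. Between libraries, Mt2 did not pass in DESeq2 (adjusted p = 0.0585 after saline and 0.0826 after dex). In edgeR with no filter it passed after saline (adjusted p = 0.0335) and not after dex (0.0553).

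The sensor and the exporter went the other way. Mtf1 was 2.37-fold higher in germ cells after saline (log2 difference 1.24, SE 0.096, adjusted p = 1.03e-08) and 2.20-fold after dex (1.13, SE 0.10, adjusted p = 1.13e-06). Slc30a1 was 2.54-fold higher after saline (1.34, SE 0.13, adjusted p = 1.78e-07) and 2.01-fold after dex (1.01, SE 0.12, adjusted p = 9.83e-06). In both treatments the germ cell libraries lay above every soma library.

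Slc39a14 differed less. It was lower in germ cells by a log2 difference of −0.51 after saline (SE 0.12, adjusted p = 0.00121, edgeR) and −0.49 after dex (SE 0.18, adjusted p = 0.0273, edgeR). The call after dex held with upper-quartile factors (−0.47, adjusted p = 0.0356) and was lost with RLE size factors (−0.41, adjusted p = 0.0578), under DESeq2 (−0.41, adjusted p = 0.0637), under limma on FPKM (adjusted p from 0.142 to 0.221) and without soma dex replicate 1 (−0.22, adjusted p = 0.184), germ dex replicate 2 (−0.42, adjusted p = 0.0951) or germ dex replicate 3 (−0.41, adjusted p = 0.114).

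Mt1 in the germ cell libraries was a small share of its soma level, and its values are set beside transcripts of pregranulosa cells, the supporting cells that surround germ cells. As a percentage of the soma mean under the same treatment, Mt1 was at 4.62, 8.62 and 7.39% in germ saline replicates 1 to 3 and at 2.41, 8.69 and 6.11% in germ dex replicates 1 to 3. The summed level of 9 pregranulosa markers in the same libraries was 41.9, 68.5 and 87.5 CPM after saline and 30.5, 121 and 98.4 CPM after dex. Their median percentage of the soma level ran from 3.35 to 16.4%, while that of the 9 stromal markers ran from 0.418 to 1.02%. Endothelial (6.70 to 11.1%), macrophage (2.26 to 15.8%) and steroidogenic (6.71 to 16.9%) markers overlapped the pregranulosa range. Perivascular (0.804 to 1.62%), erythroid (0.0972 to 1.01%) and surface epithelium (0.4415 to 1.135%) markers were below it. The library with the least Mt1 (dex replicate 1) had the lowest pregranulosa sum and the one with the most Mt1 (dex replicate 2) had the highest. Dex replicate 2 also had the highest sums of stromal (259 CPM), erythroid (49.0 CPM), steroidogenic (16.5 CPM) and perivascular (14.4 CPM) markers, but not of macrophage, endothelial or surface epithelium markers. In this library Mrc1 alone gave 31.7 of the 46.2 CPM of the macrophage sum. Tek, which was higher in germ cells than in soma, gave 28.8 of the 58.4 CPM of the endothelial sum. By median percentage of the soma level, this library was the highest for macrophage markers (15.8%) but not for endothelial ones (8.37%). The part of such transcripts in the germ cell level of Mt1 was not tested.

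**Figure D3:**
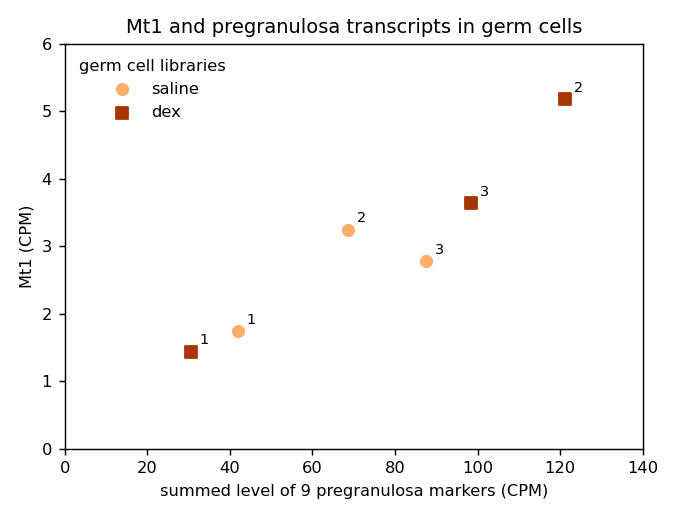
Mt1 against the summed level of 9 pregranulosa markers in the 6 germ cell libraries, both in CPM, with the replicate number at each point. Circles are saline and squares are dex. Mt1 ran from 1.44 CPM in dex replicate 1, which had the lowest marker sum, to 5.18 CPM in dex replicate 2, which had the highest.

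Among the other zinc transporters, 1 gene responded strongly. Slc30a10, a member of the ZnT family known for exporting manganese, stood at 0.314, 0.645 and 0.364 CPM in soma saline and at 4.24, 5.06 and 3.05 CPM in soma dex. The groups did not overlap. Its log2 fold change was 3.21 (SE 0.40, 95% interval 2.36 to 4.07), 9.29-fold, with an adjusted p of 0.000187 in edgeR, and it held without each library. On FPKM values under limma it missed the threshold with a filter (adjusted p = 0.0537 and 0.0757). In germ cells it stood at 1.16, 1.30 and 1.86 CPM after saline and at 1.76, 1.81 and 1.02 CPM after dex (log2 fold change 0.11, adjusted p = 0.942, edgeR), and the difference between the cell types passed the test (−3.12, SE 0.56, adjusted p = 0.00777, edgeR). Slc30a10 was thus higher in germ cells than in soma after saline (log2 difference 1.70, adjusted p = 0.00260) and lower after dex (−1.46, adjusted p = 0.00229). It is not one of the 6 genes, and it was chosen once its values were known.

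The rest of the zinc transporters did not move with dex in a way that passed. Of the 8 tested exporters of the Slc30a family, 1 rose in soma and 0 fell, with a median log2 fold change of 0.06 against 0.00 over all genes. Of the 12 tested importers of the Slc39a family, 0 passed in edgeR or in DESeq2, 1 had an unadjusted p under 0.05, and the median was −0.04. In germ cells 0 of 9 exporters and 0 of 10 importers passed in edgeR or in DESeq2, with 0 and 1 at an unadjusted p under 0.05 and medians of −0.08 and −0.06 against 0.01 over all genes. Such a p was reached in edgeR by 3453 of all 16556 genes in soma and 1963 of all 16857 in germ cells. Between the cell types after saline, 5 of 9 exporters were higher in germ cells and 2 lower, and 3 of 12 importers were higher and 8 lower, beside the 43.1% and 42.9% of all genes. The medians were 1.34 and −0.77 against 0.00 over all genes. After dex 4 exporters were higher and 5 lower, and 3 importers were higher and 8 lower, with medians of −0.28 and −0.88. The change of the exporter median rests on Slc30a10, which changed side. Slc30a1, Slc30a3, Slc30a4 and Slc30a9 were higher under both treatments, and Slc30a2 and Slc30a5 lower. Slc30a6 and Slc30a7, called lower after dex only, were at −0.26 and −0.15 after saline. The exporter and importer lists were not tested against each other.

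**Figure D4:**
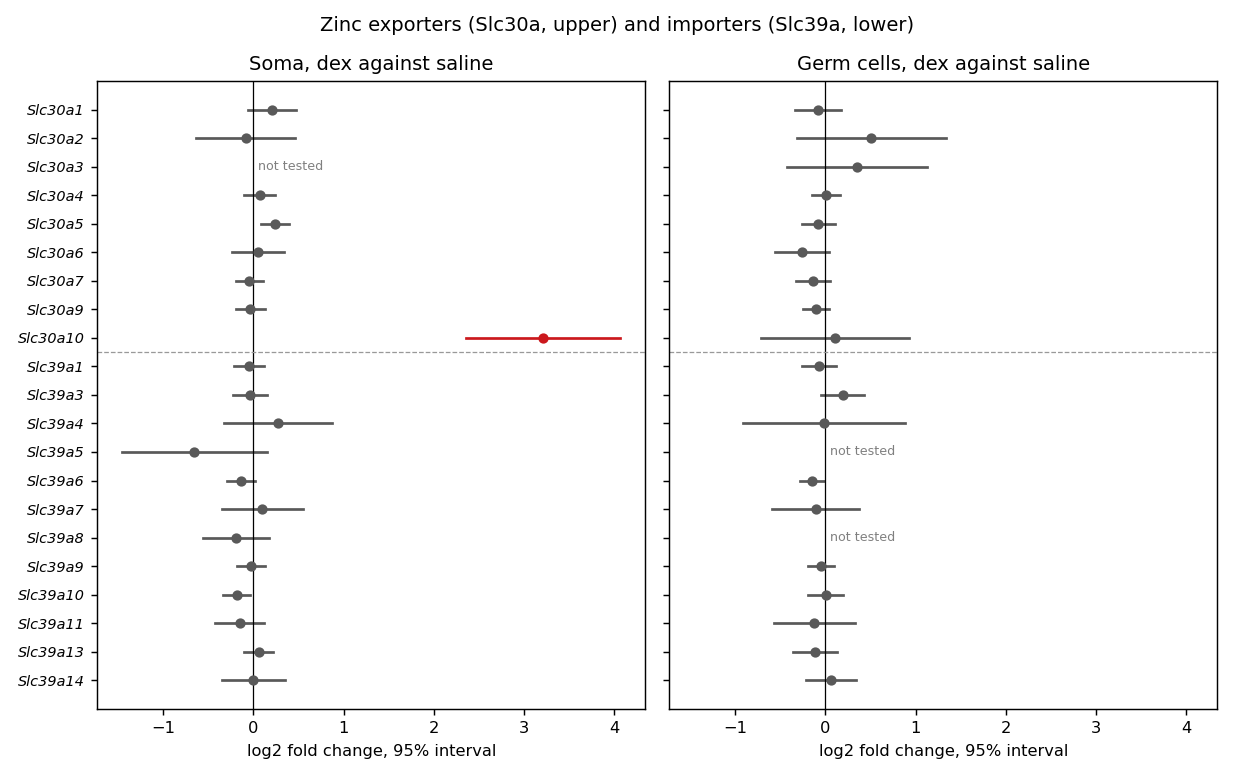
Log2 fold change (dex over saline) with its 95% interval for every Slc30a and Slc39a gene tested in soma or in germ cells. Red marks an adjusted p of at most 0.05. Slc30a10 in soma, at 3.21, is the only red point.

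Other metal and redox genes were counted beside the 8.18% of all genes called in soma and the 0.208% called in germ cells. Counts at an unadjusted p under 0.05 stand beside 3453 of 16556 genes in soma and 1963 of 16857 in germ cells. For copper handling, 0 of 12 genes passed in soma and 0 of 11 in germ cells in edgeR, with 1 at an unadjusted p under 0.05 in each and 0 and 1 in DESeq2. For iron handling, 3 of 13 passed in soma. The ferroxidase Cp rose from 3.18 ± 0.392 to 8.25 ± 0.732 CPM, the transferrin receptor Tfrc fell from 62.5 ± 2.84 to 43.6 ± 8.76 CPM, and Slc11a2 (an iron importer) fell from 49.2 ± 3.48 to 38.4 ± 4.77 CPM. In germ cells 0 of 11 iron genes passed in edgeR or DESeq2, with 4 at an unadjusted p under 0.05.

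For targets of NRF2 and glutathione metabolism, 2 of 14 passed in soma in edgeR, both higher, and 3 in DESeq2. In edgeR 5 had an unadjusted p under 0.05, and not all of these were higher. The median log2 fold change of the 14 was −0.03 against 0.00 over all genes, so the list as a whole was not shifted upward. Nfe2l2, which encodes NRF2 itself, rose from 70.8 ± 2.15 to 97.3 ± 10.8 CPM, and the secreted glutathione peroxidase Gpx3 rose from 38.5 ± 4.37 to 58.4 ± 6.87 CPM. In germ cells 1 of 13 passed, the peroxiredoxin Prdx1, which fell from 572 ± 21.7 to 428 ± 37.7 CPM (log2 fold change −0.40, adjusted p = 0.0406, edgeR). Of these 13 genes, 4 had an unadjusted p under 0.05 in edgeR.

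The genes most like each member over the 12 libraries were found by Pearson's r of log2 CPM, given as a description since the contrast of 2 cell types dominates it. For Mt1 they were Adamts16 (r = 0.999), Acaa2 (0.998) and Plekha2 (0.996), and for Mt3 C130026L21Rik (0.974), Fam129a (0.972) and Vnn1 (0.971). For Mtf1 they were the ZnT family gene Slc30a9 (0.997), Pkd2l2 (0.995) and Fam118a (0.995), and for Slc30a1 Dnajc19 (0.988), Ccdc58 (0.987) and Tmem5 (0.985). Slc39a14, the gene with the smallest contrast between cell types, had the weakest matches, Iqcn (0.938), Ctf2 (0.915) and Eif2ak3 (0.900).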

How the data were processed

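The authors sorted E15.5 ovaries, sequenced poly-A RNA as read pairs, aligned them to mm10 with HISAT2 2.0.5 and counted fragments per gene with featureCounts 1.5.0-p3, as the submitters' processing notes and the study's methods give. The deposited table holds raw counts per gene, and the authors' second table holds FPKM from counts, gene length and depth. The strand and multimapping settings are not given in the sources used here. Tables of the authors' own DESeq2 1.20.0 comparisons were not used.

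Counts were scaled by TMM, filtered with filterByExpr and tested with edgeR 4.0.16 in R 4.3.3 (quasi-likelihood, two-sided, Benjamini-Hochberg over all genes tested, called at an adjusted p of at most 0.05), fitting the 2 groups compared, or all 12 libraries for the difference between responses. CPM is the count scaled to the column total times its TMM factor. Alternatives were other size factors, filters, DESeq2 1.42.0, limma 3.58.1 on log2(FPKM + 1) and log2(FPKM + 0.1), a replicate block and leaving out each library. Nothing ties replicates to separate animals beyond the pooled litters, so p-values measure the spread between these libraries. No libraries were identical. The edgeR, DESeq2 and limma tests were tested on simulated data. Changes were put into genes with high counts only, and every gene had the same dispersion. Those runs thus say nothing on genes with low counts, such as Mt2 and Mt3, or with an uneven spread between libraries.

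All 6 members are described, called or not. From the other lists, counts are given, and by name genes called after dex, at most 4 per list, or more for cell type markers and zinc exporters. The result of 1 marker gene is not reported here. Members and lists were chosen with earlier results of these data known. Promoters are RefSeq's (GRCm38.p6), matched for 5 of 6 members. Gene models are GENCODE vM21.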

Additional observations from a re-analysis of the deposited data

Results flagged for a closer look

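These 8 genes responded to dex differently in germ cells and soma, by the test of the difference itself in edgeR, and none is one of the 6 genes. They came from the zinc, copper, iron, redox and glucocorticoid lists. In these, 1 of 9 exporters, 3 of 14 NRF2 and glutathione genes and 4 of 8 glucocorticoid genes passed. Of 12 importers, 12 copper genes and 13 iron genes, 0 passed. Over all 19390 genes 1.62% passed. The log2 fold change in germ cells minus that in soma was −3.12 for Slc30a10 (adjusted p = 0.00777), −0.58 for Nfe2l2 (0.0170), −0.54 for Gclc (0.0170) and −0.45 for Prdx1 (0.0218). Among the glucocorticoid targets it was −0.97 for Fkbp5 (adjusted p = 0.000328), −1.13 for Tsc22d3 (1.87e-05), −3.99 for Zbtb16 (0.00913) and −2.95 for Klf9 (1.60e-06). Slc30a10, Nfe2l2 and the 4 glucocorticoid targets rose in soma. Gclc passed in neither cell type on its own, and Prdx1 fell in germ cells. Cell type markers were left out of these 8 genes. Of the 8 germ cell markers 1 passed this test in edgeR, Dazl (difference −3.565, adjusted p = 1.91e-10).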

How the results depend on the processing

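The 6 genes gave 408 values under the alternatives tried, of which 373 kept their direction and their side of the threshold, 25 reversed and 10 became weaker. Every reversed value had an adjusted p of at least 0.317. The number of genes called in soma moved from 1354 to 803 with all 12 libraries fitted, where 0 of these 6 genes were called, and to 595, 581 and 298 under limma with log2(FPKM + 1), with log2(FPKM + 0.1) and with log2(FPKM + 1) unfiltered, the last also with 0 of the 6 called. In germ cells it moved from 35 to 420 with no filter, 158 in DESeq2, 64 with all 12 libraries, and 4, 2 and 0 in limma in the same order. For the difference between responses it moved from 314 to 727 with no filter, 620 in DESeq2 and 190 with log2(FPKM + 0.1). Upper-quartile factors moved its split from 95 higher and 219 lower to 123 and 143. Leaving out 1 library gave 754 to 1881 calls in soma, 17 to 81 in germ cells and 143 to 384 for the difference.

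Reversed values were small. In soma, Slc39a14 was at −0.0030 with RLE factors, −0.0284 with upper-quartile factors, −0.0083 with no filter, −0.0037 in DESeq2, −0.0246 with the replicate block, and −0.0149, −0.0281 and −0.0149 in limma. Without single libraries it ran from −0.252 to 0.135 and Mtf1 from −0.115 to 0.0478. In germ cells such ranges were −0.0399 to 0.115 for Slc39a14, −0.0202 to 0.754 for Mt1, −0.189 to 0.0429 for Slc30a1 and −0.0379 to 0.342 for Slc30a10. For the difference they were −0.668 to 0.0854 for Mt1, −0.456 to 1.39 for Mt3, −0.0744 to 0.319 for Slc39a14 and −0.149 to 0.0033 for Mtf1, and limma put Mt3 at −0.144 with and without a filter. The alternatives for Slc30a10 were chosen after seeing the data. The causes of these changes were not tested.

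Same-numbered libraries did not correlate above 0.1 in every pair (dex and saline germ cells 0.132, 0.0087 and 0.037, soma 0.049, −0.0093 and 0.027), so the numbers were not taken to pair them. With the replicate block the calls numbered 49 in germ cells, 1520 in soma, 222 for the difference, 15283 between cell types after saline and 15044 after dex. Between germ cells and soma every library correlated best with its own number. The study sorted both fractions from digested ovaries, but the sources used here do not say whether same-numbered libraries shared a pool. The main tests that compare the cell types did not pair these libraries. The limit of 3 counts leaves Mt2 in all groups, and Mt3 in germ cells, without a usable fold change after dex. DESeq2 and no filter moved the median of all genes in germ cells against soma by 0.21 and 0.14 after saline and by 0.32 and 0.27 after dex, on the log2 scale.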
